A study of Mus musculus with 10 samples.

Results

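The 35 genes described here encode the vesicle proteins and release machinery of the presynaptic terminal, and they were taken by symbol from the 20156 gene rows of the unnormalized hippocampal count table. All 35 symbols were found there and all 35 were tested. Messenger RNA of 10 mice aged 6 months was sequenced as 1 library per mouse, 5 mice labelled as wild type (WT) and 5 labelled TfamAKO. The labels name the hippocampus as the only tissue and do not give the sex or litter of the mice, the part of Tfam that was deleted, or the promoter and cell type of the deletion. The series title places the study in astrocytic mitochondria and in neurodegeneration. The comparison asks which presynaptic transcripts differ between these genotypes.

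A nerve terminal stores transmitter in synaptic vesicles and releases it when a vesicle fuses with the plasma membrane. Fusion is driven by the SNARE proteins, which zip up from both membranes into a single bundle, and it is timed by calcium sensors of the synaptotagmin family with the help of complexins. Active zone scaffolds hold vesicles and calcium channels together, Rab3 and its effectors guide docking, an ATPase takes the spent SNARE bundle apart, and dynamin with its partners recovers the membrane. In the hippocampus most terminals are glutamatergic, with a minority of GABAergic ones, and these genes are transcribed mainly in neurons.

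Total counts ran from 16584245 to 28675367 per library, and each member had between 83 and 51745 counts in a library, with at least 372 for every member other than Syn3. Levels are given as CPM, the usual counts-per-million scale, after scaling the library sizes and without correction for transcript length. Tfam, the targeted gene, fell in TfamAKO (log2 fold change -0.40 ± 0.12 SE, edgeR adjusted p = 0.0204), with WT 3 inside the TfamAKO range. Several libraries stood apart. The 11 markers of choroid plexus, a tissue that lies against the hippocampus, summed to 5763, 4282 and 2859 CPM in WT 3, 4 and 5 and to between 42.1 and 167 CPM in every other library. The Y-linked gene Kdm5d had a level of 22.7 CPM in TfamAKO 4, 22.4 CPM in TfamAKO 5 and 0.12 to 0.70 CPM elsewhere. The 2 tested genes of a list of Y-linked genes and Xist, an X-linked RNA of female cells, went the other way in sum. They summed to 22.8 CPM in TfamAKO 4, 22.4 CPM in TfamAKO 5 and 201 to 468 CPM elsewhere. No WT library had the profile of TfamAKO 4 and 5, and the part of sex in the results was not tested. TfamAKO 1 was the TfamAKO library nearest to WT, at 12.2 on the first principal component of all genes, where the WT libraries lay between -46.2 and -34.8 and the other TfamAKO libraries between 37.1 and 52.7. Where leaving out these libraries ends a call, the value without them is given beside the result, with the range of the adjusted p over 21 alternative settings.

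Most of the 35 genes were lower in TfamAKO. Of the 35 genes, 19 fell, 1 rose (Sv2c) and 15 did not pass an adjusted p threshold of 0.05 in edgeR's quasi-likelihood test, fitted and adjusted over 16180 genes. Over all genes tested, 16.6% were called lower and 20.8% higher. The median log2 fold change (TfamAKO minus WT) was -0.27 for the 35 genes and -0.02 for all genes tested, and 31 of the 35 had a negative value. The 19 falls ran from -1.04 for Doc2b to -0.18 for Amph, and 14 of them were falls of less than 25%. In 11 genes every TfamAKO library lay below every WT library, against 9.43% of all genes tested, and in 0 genes did every TfamAKO library lie above every WT library, against 14.5%. CPM are relative to the other RNA of a library. In bulk tissue, fewer neurons or terminals, less RNA per neuron and more RNA of other cells cannot be told apart.

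The summed CPM of the 35 genes was 2.15%, 2.03%, 2.02%, 1.99% and 2.05% of the scaled library size in WT 1 to 5. In TfamAKO 1 to 5 it was 1.91%, 1.63%, 1.70%, 1.65% and 1.68%. The groups did not overlap in this scaled sum, and TfamAKO 1 was the highest TfamAKO library. The mean was 2.05% ± 0.06 in WT and 1.71% ± 0.11 in TfamAKO (SD, n = 5 each). The scaling factors ran from 0.963 in WT 2 to 1.05 in TfamAKO 5, so these values are not shares of the raw counts. The gap between the groups in raw counts was not computed. Without TfamAKO 4 and 5, 14 members were lower and 1 was higher, with 12.7% of all genes called lower and 17.5% higher. Without WT 3, 4 and 5, 12 members were lower and 0 were higher, with 4.48% of all genes called lower and 12% higher. The authors' deposited normalized values, tested with limma, gave 19 members lower and 1 higher, with 14.6% and 18% of all genes called. Of the 19 falls, 13 stayed called without TfamAKO 4 and 5, and 11 without WT 3, 4 and 5.

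**Figure D1:**
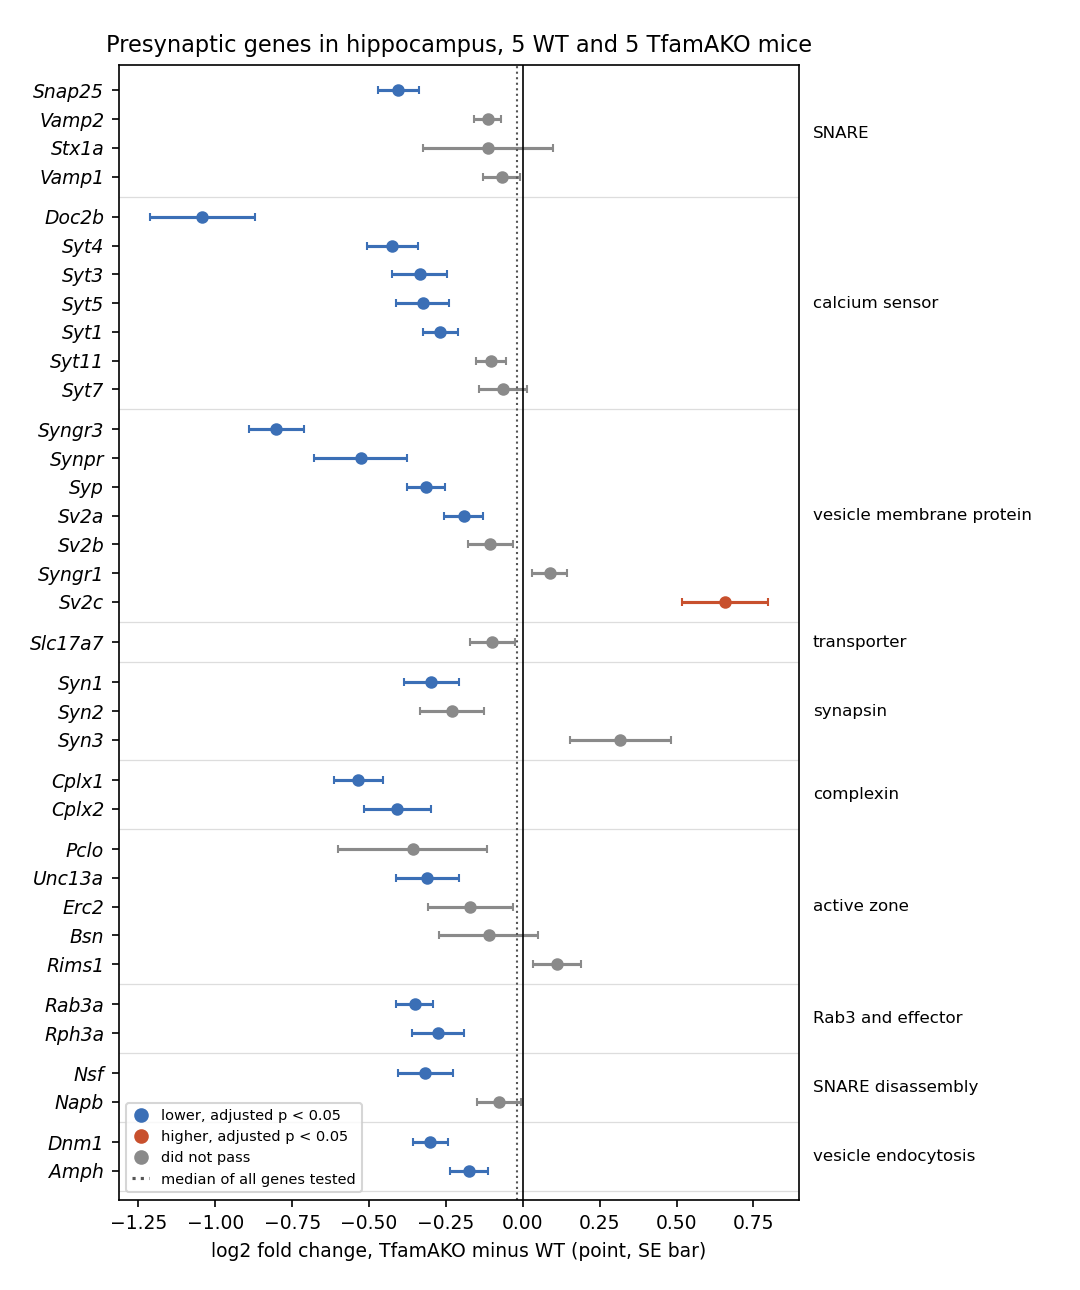
Log2 fold change (TfamAKO minus WT, horizontal axis) of each of the 35 genes with its standard error as a bar, grouped by role, with the median of all genes tested as a dotted line. The 19 genes that fell are blue, Sv2c, the 1 gene that rose, is red, and the 15 that did not pass are grey.

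The SNARE proteins form the fusion bundle itself. Of the 4 SNARE genes, Snap25 fell and Stx1a, Vamp1 and Vamp2 did not pass. Snap25, the plasma membrane SNARE that gives 2 of the helices of the bundle, gave 2076, 2094, 1967, 1975 and 1986 CPM in the libraries of WT 1 to 5, and 1589, 1374, 1529.8, 1413 and 1719 in those of TfamAKO 1 to 5. Every TfamAKO library was below every WT library. Its level was 24.5% lower (log2 fold change -0.41 ± 0.07 SE, edgeR adjusted p = 0.000651). Vamp2, the main vesicle SNARE of the forebrain, gave 1043, 1047, 1044, 1043 and 1089 CPM in the WT mice and 956, 977, 984, 984 and 961 in the TfamAKO mice. The groups did not overlap, but the difference was small (log2 fold change -0.11 ± 0.04 SE) and missed the threshold at an edgeR adjusted p of 0.0578. The same gene passed under upper-quartile scaling (-0.15, edgeR adjusted p = 0.0212, 0.000344 to 0.456 over the alternatives), with a stricter filter on low counts, in the DESeq2 Wald test and in limma-voom, so its call depends on the method.

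Stx1a, the syntaxin that anchors the bundle in the plasma membrane, was chosen for a full account after its values were seen. Its CPM were 115, 125, 106, 106 and 103 in WT and 81.9, 86.8, 91.2, 72.3 and 181 in TfamAKO. The first 4 TfamAKO libraries were below all WT libraries, while TfamAKO 5 was above all of them. With all libraries the log2 fold change was -0.11 ± 0.21 SE (edgeR adjusted p = 0.698). Without TfamAKO 5 it was -0.42 (edgeR adjusted p = 0.00209), and without TfamAKO 4 and 5 it was -0.36 (edgeR adjusted p = 0.00692, 0.00209 to 0.98 over the alternatives). Vamp1, a vesicle SNARE more typical of spinal cord and hindbrain, had a log2 fold change of -0.07 ± 0.06 SE and did not pass.

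Calcium sensors trigger or modulate fusion when calcium enters the terminal, and of the 7 synaptotagmin and Doc2 genes in the set, not all of which bind calcium, 5 fell. Doc2b, a high-affinity sensor linked to spontaneous and asynchronous release, had the largest fall of the 35 genes. Its CPM were 106, 85.8, 124, 134 and 120.0 in WT and 73.2, 48.3, 55.4, 63.7 and 36.4 in TfamAKO. All TfamAKO libraries lay below the lowest WT library, WT 2. The level was 51.4% lower (log2 fold change -1.04 ± 0.17 SE, edgeR adjusted p = 0.000685). Syt4, a synaptotagmin found on dense-core as well as other vesicles, gave 153, 149, 130.1, 154 and 149 CPM over the 5 WT libraries, compared with 123, 108, 108, 90.4 and 119 over the TfamAKO libraries. WT 3 was low for its group, yet the groups did not overlap. Syt4 fell by 0.42 on the log2 scale (SE 0.08, edgeR adjusted p = 0.00196).

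Syt1, the fast sensor for synchronous release, fell from 1287 ± 60.8 to 1068 ± 56.4 CPM (SD, n = 5 each), with no overlap between groups (log2 fold change -0.27 ± 0.06 SE, edgeR adjusted p = 0.0032). Syt3 and Syt5 fell as well, both by 0.33 on the log2 scale (edgeR adjusted p = 0.0121 and 0.0122), each with 4 TfamAKO libraries below the lowest WT library. Syt3 was not called without WT 3, 4 and 5 (-0.33, edgeR adjusted p = 0.114, 0.00199 to 0.114 over the alternatives). Syt7, a slow sensor with a part in asynchronous release and facilitation, did not pass (-0.06 ± 0.08 SE). TfamAKO 4 was the highest of all libraries for Syt7 at 473 CPM. Syt11, a synaptotagmin that does not bind calcium, had groups that did not overlap, at 854 ± 33.1 CPM in WT and 796 ± 24.7 CPM in TfamAKO (SD, n = 5 each), but a log2 fold change of only -0.10 ± 0.05 SE that did not pass (edgeR adjusted p = 0.121).

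**Figure D2:**
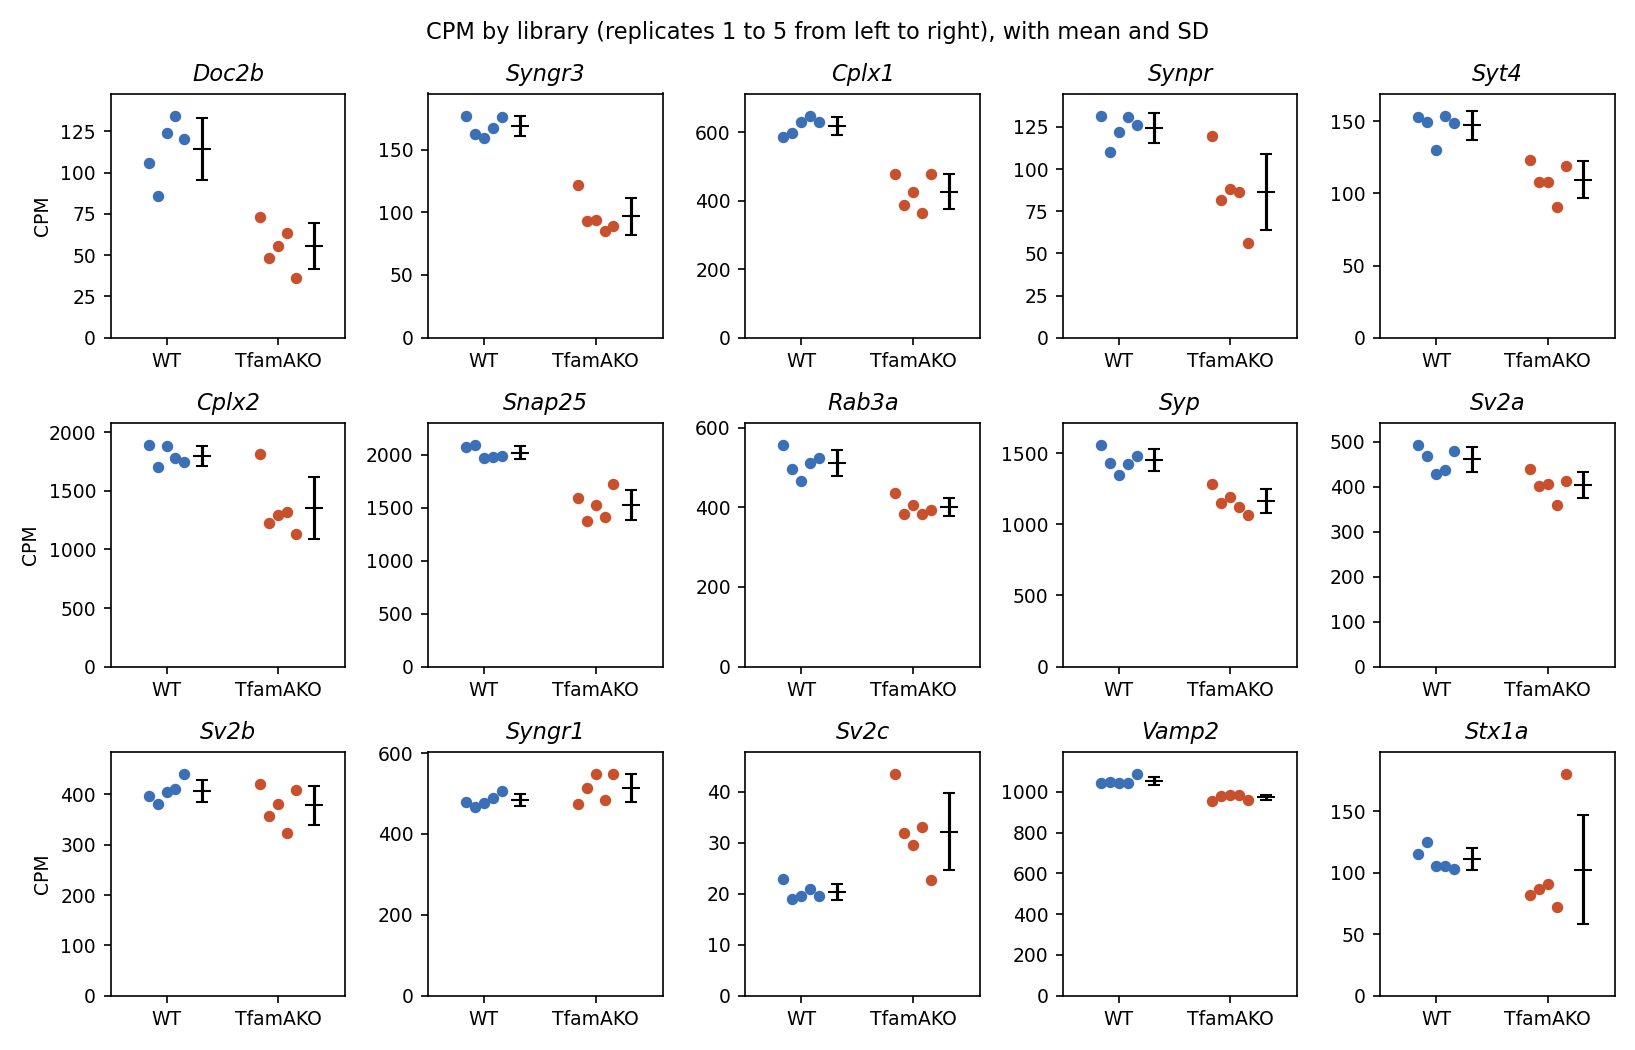
CPM (vertical axes, from 0) of 15 genes by library, WT in blue and TfamAKO in red, replicates 1 to 5 from left to right, with the mean and SD of each group beside the points. Doc2b, Syngr3, Cplx1, Syt4, Snap25, Rab3a, Syp and Vamp2 show no overlap between groups, Synpr and Cplx2 overlap through TfamAKO 1, and Stx1a has 1 TfamAKO library above all WT libraries.

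The proteins of the vesicle membrane were the only role in which genes passed in both directions: of 7, 4 fell (Syngr3, Synpr, Syp and Sv2a), Sv2c rose, and Syngr1 and Sv2b did not pass. Syngr3 encodes synaptogyrin 3, a vesicle protein with 4 membrane spans. Its CPM were 177, 163, 159, 167 and 176 in WT and 122, 93.4, 93.8, 85.0 and 89.2 in TfamAKO. All TfamAKO libraries were below all WT libraries, with TfamAKO 1 standing above the other 4. The level was 42.6% lower (log2 fold change -0.80 ± 0.09 SE, edgeR adjusted p = 4.78e-05), the smallest p of the 35 genes. Its relative Syngr1 did not share this difference: the WT mice had 479, 467, 476, 489.5 and 507 CPM and the TfamAKO mice 475, 515, 549, 483 and 547. The groups of Syngr1 overlapped (log2 fold change 0.09 ± 0.06 SE, edgeR adjusted p = 0.248).

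Syp encodes synaptophysin, the standard marker protein of synaptic vesicles. It gave 1559, 1433, 1349, 1423 and 1481 CPM in the WT mice and 1286, 1152, 1192, 1125 and 1067 in the TfamAKO mice. The groups did not overlap, and the level fell by 0.32 on the log2 scale (SE 0.06, edgeR adjusted p = 0.00232). Synpr encodes synaptoporin, a relative of synaptophysin enriched in mossy fibre terminals of dentate granule cells. Its CPM were 132, 110.3, 122, 131 and 126 in WT and 119.6, 81.6, 88.1, 86.3 and 56.0 in TfamAKO. TfamAKO 1 lay inside the WT range and TfamAKO 5 was the lowest. The fall was -0.53 ± 0.15 SE (edgeR adjusted p = 0.0167) and was no longer called without WT 3, 4 and 5 (-0.46, edgeR adjusted p = 0.177, 0.00102 to 0.177 over the alternatives).

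The 8 marker genes of the dentate gyrus, where Synpr is enriched, were ordered in a like way. Their mean log2 CPM minus that of WT was -0.31, -0.94, -0.88, -0.52 and -1.61 in TfamAKO 1 to 5, again nearest to WT in TfamAKO 1 and farthest in TfamAKO 5. Of these markers 4 fell and none rose, and their summed level was 387 to 507 CPM in WT and, overlapping it, 181 to 450.3 CPM in TfamAKO. This order was not particular to the dentate gyrus. On the same scale, the CA2 and CA3 markers lay at -0.16, -0.41, -0.52, -0.39 and -0.54 in TfamAKO 1 to 5. They too were nearest to WT in TfamAKO 1 and farthest in TfamAKO 5. The CA1 markers were nearest in TfamAKO 4 (-0.30) and farthest in TfamAKO 3 (-0.47). The part of these regions in the fall of Synpr was not tested.

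The SV2 proteins are large vesicle glycoproteins with a transporter-like fold, and their 3 genes differed from each other. Sv2a, the form found at most synapses and the binding site of the antiepileptic drug levetiracetam, gave 493, 468, 427, 436 and 479 CPM over the 5 WT libraries, compared with 438, 401, 406, 359 and 412 over the TfamAKO libraries. TfamAKO 1 overlapped WT, and the fall was small (log2 fold change -0.19 ± 0.06 SE, edgeR adjusted p = 0.0335). It was lost without TfamAKO 4 and 5 (-0.15, edgeR adjusted p = 0.108, 0.00896 to 0.122 over the alternatives), without WT 3, 4 and 5 (-0.23, edgeR adjusted p = 0.122), and without any 1 of WT 1, WT 2, WT 5, TfamAKO 2, TfamAKO 3 and TfamAKO 4. Sv2b gave 397, 381, 405, 411 and 441 CPM in the WT mice and 421, 358, 381, 324 and 408 in the TfamAKO mice, with overlapping groups (log2 fold change -0.11 ± 0.07 SE, edgeR adjusted p = 0.283). Sv2c, known mainly from the basal ganglia, was the 1 member that rose. It gave 22.9, 19.0, 19.6, 20.9 and 19.7 CPM over the 5 WT libraries, compared with 43.6, 31.9, 29.7, 33.1 and 22.7 over the TfamAKO libraries. The first 4 TfamAKO libraries were above every WT library, and TfamAKO 5 lay just under WT 1. Sv2c was 57.7% higher (log2 fold change 0.66 ± 0.14 SE, edgeR adjusted p = 0.00352). Without WT 3, 4 and 5 the value was 0.65 but did not pass (edgeR adjusted p = 0.0708, 8.00e-05 to 0.0708 over the alternatives).

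The start regions of both complexins, which fell, and of Sv2c, which rose, are printed to show the sequence context of members that moved in opposite directions. They are RefSeq windows of build GRCm38.p6, from 250 bases before to 50 bases after the annotated start, 5′ to 3′ along the gene, with matches to the motifs named in the next paragraph in capitals. The window of Cplx1 is chr5:108549978-108550277 on the minus strand, that of Cplx2 is chr13:54302306-54302605 on the plus strand, and that of Sv2c is chr13:96132528-96132827 on the minus strand.
Cplx1: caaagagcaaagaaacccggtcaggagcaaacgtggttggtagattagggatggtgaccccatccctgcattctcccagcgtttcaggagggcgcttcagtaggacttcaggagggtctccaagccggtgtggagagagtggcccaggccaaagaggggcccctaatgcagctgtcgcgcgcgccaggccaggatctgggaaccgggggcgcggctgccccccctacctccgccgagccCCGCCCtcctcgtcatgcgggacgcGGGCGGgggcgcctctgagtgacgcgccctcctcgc
Cplx2: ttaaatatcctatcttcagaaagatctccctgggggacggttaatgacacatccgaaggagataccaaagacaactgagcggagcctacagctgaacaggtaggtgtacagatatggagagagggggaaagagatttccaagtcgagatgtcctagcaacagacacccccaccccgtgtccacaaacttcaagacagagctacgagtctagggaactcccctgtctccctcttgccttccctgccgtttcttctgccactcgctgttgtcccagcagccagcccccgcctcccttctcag
Sv2c: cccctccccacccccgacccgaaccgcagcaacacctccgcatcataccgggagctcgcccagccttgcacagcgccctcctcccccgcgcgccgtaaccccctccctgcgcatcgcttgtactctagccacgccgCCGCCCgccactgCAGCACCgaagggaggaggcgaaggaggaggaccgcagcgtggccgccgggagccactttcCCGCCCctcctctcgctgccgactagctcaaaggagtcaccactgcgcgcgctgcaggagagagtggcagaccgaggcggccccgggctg

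In these windows a script looked on both strands for the GC box (GGGCGG), the cyclic AMP response element (TGACGTCA), the TATA box (TATAAA) and both cores of RE1, the element bound by the neuronal gene repressor REST (CAGCACC and GGACAGC). The Cplx1 window holds 2 GC boxes, the Sv2c window holds 2 GC boxes and 1 copy of the first RE1 core, and the Cplx2 window holds none of these letters. No match overlapped another. GC content was 67.0%, 71.7% and 53.3% for Cplx1, Sv2c and Cplx2. The table had 36 windows for 27 of the 35 genes and none for Doc2b, Snap25, Syn3, Syngr3, Syt4, Syt5, Syt7 and Vamp2. A GC box was in 20 of the 36 windows (55.6%) and in 35.7% of all 32851 windows of the table, and the median GC content was 61.3% and 52.7%. The first RE1 core was in 4 of the 36 windows (Rph3a, Sv2c, Syn1 and Unc13a), against 7.14% of all windows, and the other RE1 core in 3 (Rph3a and Unc13a), against 6.56%. The cyclic AMP response element was in 1 (Syn1), against 1.79%, and the TATA box in 2 (Sv2b), against 13.6%. These are matches of letters and say nothing of binding.

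Complexins bind the partly zipped SNARE bundle, holding back and then promoting fusion, and both of their genes in the set fell. Cplx1, whose window is printed above, gave 585, 599, 628, 648 and 629.8 CPM in the WT mice and 478, 388, 424, 365 and 478 in the TfamAKO mice. The highest TfamAKO libraries, 1 and 5, were still more than 100 CPM below the lowest WT library. Cplx1 was 31.0% lower (log2 fold change -0.53 ± 0.08 SE, edgeR adjusted p = 0.000329). Cplx2, the complexin more typical of excitatory neurons, gave 1892, 1701, 1882, 1779.9 and 1741 CPM over the 5 WT libraries, compared with 1813, 1227, 1292, 1316 and 1135 over the TfamAKO libraries. TfamAKO 1 was inside the WT range while the other TfamAKO libraries were all far below it. The fall of Cplx2 (-0.41 ± 0.11 SE, edgeR adjusted p = 0.0119) was lost without TfamAKO 4 and 5 (-0.32, edgeR adjusted p = 0.0644) and without WT 3, 4 and 5 (-0.38, edgeR adjusted p = 0.135, 5.16e-05 to 0.135 over the alternatives).

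Slc17a7 encodes VGLUT1, which fills vesicles with glutamate at most hippocampal excitatory terminals. Its level of 1592 ± 63.0 CPM in WT and 1487 ± 159 CPM in TfamAKO (SD, n = 5 each) did not pass (log2 fold change -0.10 ± 0.07 SE, edgeR adjusted p = 0.302). TfamAKO 1 was above all WT libraries at 1751 CPM and the other TfamAKO libraries were below all of them. Without TfamAKO 1 the gene was called lower (-0.16, edgeR adjusted p = 0.0294, 0.0294 to 0.683 over the alternatives).

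The synapsins tether vesicles in a reserve pool. Syn1 fell from 659 ± 49.1 to 536 ± 74.4 CPM (SD, n = 5 each, log2 fold change -0.30 ± 0.09 SE, edgeR adjusted p = 0.0217), with TfamAKO 1 inside the WT range. It was not called without TfamAKO 4 and 5 (-0.26, edgeR adjusted p = 0.0881, 0.000713 to 0.146 over the alternatives), without WT 3, 4 and 5 (-0.31, edgeR adjusted p = 0.146), or without any 1 of WT 1, TfamAKO 2, TfamAKO 3 and TfamAKO 4. Syn2 was at 699.5 ± 37.7 and 596 ± 105 CPM (SD, n = 5 each) and did not pass (-0.23 ± 0.11 SE, edgeR adjusted p = 0.106), except without TfamAKO 1 (-0.32, edgeR adjusted p = 0.0120, 0.012 to 0.429 over the alternatives). Syn3, a synapsin linked more to development, was at 6.28 ± 0.79 and 7.84 ± 1.85 CPM (SD, n = 5 each) and did not pass (0.32 ± 0.16 SE, edgeR adjusted p = 0.149).

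The active zone is the patch of membrane where vesicles dock and fuse. Of its 5 genes, Unc13a fell and Rims1, Bsn, Pclo and Erc2 did not pass. Unc13a encodes Munc13-1, which primes docked vesicles for fusion. It gave 385, 367, 366, 283 and 316 CPM in the WT mice and 331, 246, 256, 294 and 256 in the TfamAKO mice, with overlapping groups (log2 fold change -0.31 ± 0.10 SE, edgeR adjusted p = 0.0311). The call was lost without TfamAKO 4 and 5 (-0.30, edgeR adjusted p = 0.0874, 0.00677 to 0.0874 over the alternatives) and without any 1 of WT 1, WT 2, WT 3, TfamAKO 2, TfamAKO 3 and TfamAKO 5. Rims1, a scaffold that ties vesicles to calcium channels, had a log2 fold change of 0.11 ± 0.08 SE. Erc2, an ELKS family scaffold, had -0.17 ± 0.14 SE, and it was called lower without TfamAKO 1 (-0.31, edgeR adjusted p = 0.0329, 0.0329 to 0.845 over the alternatives).

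Bsn and Pclo encode bassoon and piccolo, giant scaffolds of the active zone, and they varied most within WT. Pclo gave 237, 130.5, 121, 76.0 and 96.1 CPM over the 5 WT libraries, compared with 117, 90.0, 93.2, 109.5 and 105 over the TfamAKO libraries. Bsn gave 485, 311, 333, 227 and 293 CPM in the WT mice and 339, 271, 287, 294 and 336 in the TfamAKO mice. In both genes WT 1 was the highest and WT 4 the lowest of all 10 libraries, and the TfamAKO values lay between them. Neither passed, at -0.36 ± 0.24 SE for Pclo and -0.11 ± 0.16 SE for Bsn. Without WT 1 the value for Bsn was 0.07, and without WT 3, 4 and 5 that for Pclo was -0.81 (edgeR adjusted p = 0.0231, 0.0231 to 0.849 over the alternatives). Their longest annotated transcripts, of 20084 and 15938 bases, are the longest of the set. Over all genes, the longest 10% had a median log2 deviation from the WT mean of 0.09 in WT 1 and of -0.08 in WT 4. It was -0.10 in TfamAKO 2 and -0.09 in TfamAKO 3, where Pclo and Bsn were higher than in WT 4. The part of transcript length in these results was not tested. These 2 genes were singled out after their values were seen.

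Rab3a encodes the main Rab GTPase of synaptic vesicles. Its CPM were 557, 496, 467, 511 and 524 in WT and 436, 384, 407, 383 and 393 in TfamAKO. The groups did not overlap, and the TfamAKO libraries were close together. Rab3a fell by 0.35 on the log2 scale (SE 0.06, edgeR adjusted p = 0.000941). Its effector Rph3a, rabphilin, fell from 412 ± 36.2 to 340.3 ± 37.8 CPM (SD, n = 5 each, log2 fold change -0.28 ± 0.08 SE, edgeR adjusted p = 0.0236), and was not called without WT 3, 4 and 5 (-0.25, edgeR adjusted p = 0.256, 0.00599 to 0.256 over the alternatives) or without any 1 of WT 2, TfamAKO 2 and TfamAKO 3.

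Nsf encodes the ATPase that takes SNARE bundles apart after fusion. It fell from 1138 ± 59.3 to 914 ± 129 CPM (SD, n = 5 each, log2 fold change -0.32 ± 0.09 SE, edgeR adjusted p = 0.0163), and the call was lost without TfamAKO 4 and 5 (-0.21, edgeR adjusted p = 0.0555) and without WT 3, 4 and 5 (-0.25, edgeR adjusted p = 0.204, 0.00204 to 0.204 over the alternatives). Napb, the brain form of its adaptor, did not pass (-0.08 ± 0.07 SE, edgeR adjusted p = 0.414). Dnm1 encodes dynamin 1, the neuronal GTPase that pinches recovered vesicles off the membrane. It fell from 1629 ± 90.2 to 1322 ± 61.5 CPM (SD, n = 5 each) with no overlap between groups (-0.30 ± 0.06 SE, edgeR adjusted p = 0.00168). Amph, amphiphysin, which brings dynamin to the neck of the budding vesicle, had the smallest fall (-0.18 ± 0.06 SE, edgeR adjusted p = 0.0425) and lost its call in 11 of 21 alternatives (0.00628 to 0.178), among them the removal of any 1 library other than TfamAKO 1. Its value was -0.11 without TfamAKO 4 and 5 (edgeR adjusted p = 0.178) and -0.19 without WT 3, 4 and 5 (edgeR adjusted p = 0.177).

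The size of the fall differed between mice. Over the 19 genes that fell, TfamAKO 1 was the highest TfamAKO library in 14 and TfamAKO 5 in the other 5. The lowest TfamAKO library was TfamAKO 4 in 7 genes, TfamAKO 5 in 7, TfamAKO 2 in 4 and TfamAKO 3 in 1. The median log2 ratio of these 19 genes to their WT mean was -0.23 in TfamAKO 1 and -0.43, -0.40, -0.41 and -0.37 in TfamAKO 2 to 5. The genes were chosen by the same comparison, so these medians describe the libraries and test nothing. The 15 pan-neuronal markers were also nearest to WT in TfamAKO 1, at -0.13, -0.45, -0.44, -0.49 and -0.36 relative to the WT mean of log2 CPM in TfamAKO 1 to 5. Among WT libraries, WT 1 was the highest in 18 of the 35 genes.

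**Figure D3:**
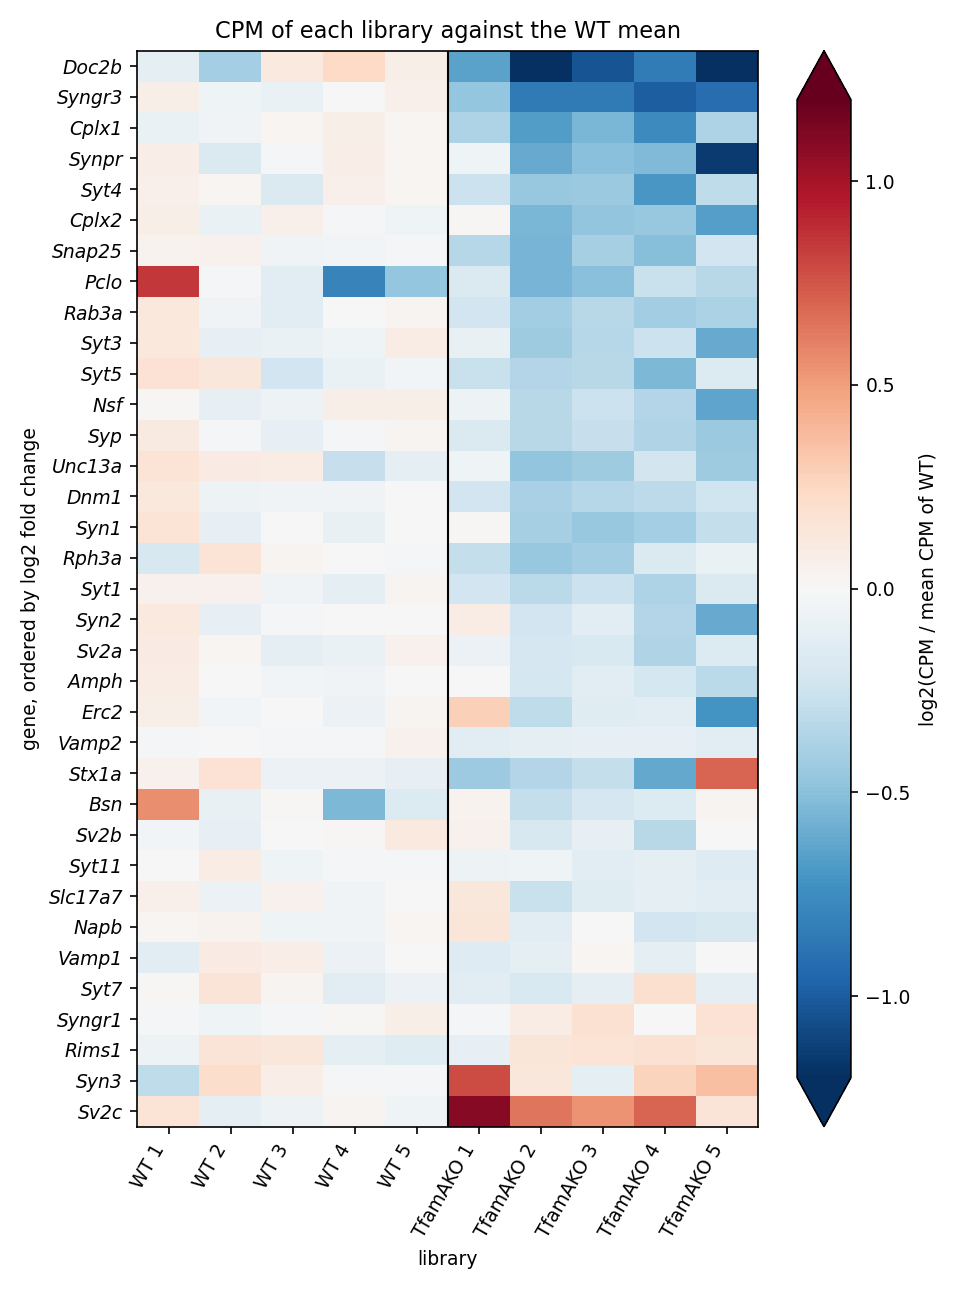
Log2 ratio of the CPM in each library (columns) to the mean CPM of WT for each of the 35 genes (rows, ordered by log2 fold change), blue for lower and red for higher. TfamAKO 1 is paler than TfamAKO 2 to 5 over most of the 19 genes that fell, and Pclo and Bsn differ most between WT 1 and WT 4.

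Ratios between related genes within a library show whether members of a family changed unequally, with no dependence on library scaling. They were computed from counts not corrected for transcript length, so only their change between groups is compared. Of 24 pairs, 5 differed between the genotypes in a two-sided exact permutation test over 252 assignments of the libraries, all at p = 0.00794, the smallest the test can give, and at a Benjamini-Hochberg adjusted p of 0.0381 over the 24 pairs. The groups did not overlap in any of these 5. Leaving out 1 library raises the smallest possible p to 0.0159, and then 0 pairs passed, except without TfamAKO 5, where 9 passed. Several pairs share a gene (Syt1, Syn1 or Sv2a) and are not independent. The pairs were also chosen with earlier results of these data known, so these p-values are not those of a fresh test.

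Dnm1 and Snap25, both neuronal, lost ground to their widely expressed relatives. Dnm2 encodes the dynamin found in most cells, and the ratio of Dnm1 to Dnm2 was 25.9 in WT and 10.4 in TfamAKO, a log2 difference of -1.33. Snap23 is the widely expressed relative of Snap25, and the ratio of Snap25 to Snap23 was 178 in WT and 93.9 in TfamAKO, a log2 difference of -0.92. Both ratios combine a fall of the neuronal gene with a rise of the other, since Dnm2 rose by 1.04 ± 0.09 SE (edgeR adjusted p = 1.07e-05) and Snap23 by 0.52 ± 0.13 SE (edgeR adjusted p = 0.00897). The other 3 pairs lie within the vesicle proteins. Syngr3 against Syngr1 went from 0.348 to 0.187 (log2 difference -0.90), Sv2c against Sv2a from 0.0443 to 0.0784 (0.82), and Syn3 against Syn1 from 0.00953 to 0.0145 (0.60). Synapsin 3 itself did not pass, so the last result concerns the ratio alone. The pair with the largest positive difference was VGLUT1 against VGLUT2, Slc17a7 to Slc17a6, at 1.33, and it did not pass (exact permutation adjusted p = 0.0816).

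**Figure D4:**
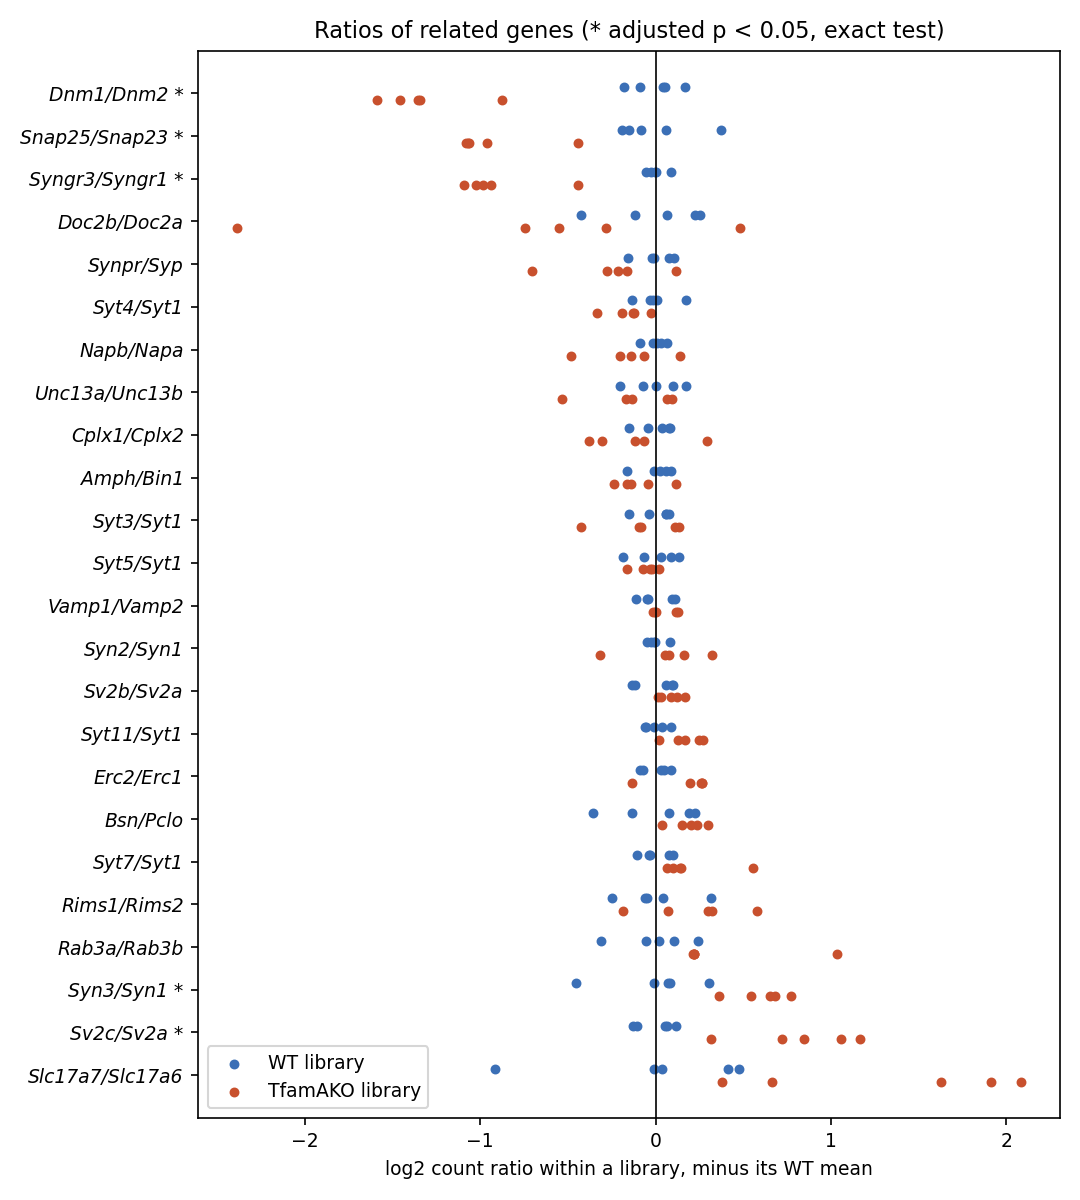
Log2 ratio of counts of 24 pairs of related genes in each library (points, WT blue and TfamAKO red), set to 0 at the WT mean of the pair (horizontal axis), ordered by the difference between groups. The 5 pairs marked with an asterisk, Dnm1/Dnm2, Snap25/Snap23, Syngr3/Syngr1, Syn3/Syn1 and Sv2c/Sv2a, have groups that do not overlap.

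Other genes of the same pathways were taken from lists for each role. For every list below, the shares over all genes tested to set beside it are 16.6% lower and 20.8% higher. Among 23 other SNAREs and their SM partners, 4 rose (17.4%) and 1 fell (4.35%), with a median log2 fold change of 0.05. The share that rose was thus no larger than over all genes. The 4 that rose were Stxbp3 (0.81 ± 0.09 SE), Vamp3 (cellubrevin, 1.07 ± 0.14 SE), Stx7 (0.24 ± 0.06 SE) and Snap23, genes used for membrane traffic in many cell types, and the 1 that fell was Snap47 (-0.22 ± 0.07 SE), which was named after its value was seen. Among 15 other calcium sensors, 4 fell (26.7%) and 1 rose (6.67%, median -0.25). Cadps, which primes dense-core vesicles, fell by 0.33 (SE 0.08), Syt13 by 0.28 (SE 0.07) and Syt2, a fast sensor of inhibitory synapses, by 0.93 (SE 0.26), as did Syt14 (-0.31 ± 0.10 SE, named after its value was seen), while Sytl4, granuphilin, rose by 0.88 (SE 0.25).

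Of 17 other vesicle proteins and transporters tested, of 18 listed, 8 fell (47.1%) and 2 rose (11.8%, median -0.21). Slc17a6, the VGLUT2 gene, fell from 26.2 ± 10.7 to 10.1 ± 5.02 CPM (SD, n = 5 each, log2 fold change -1.38 ± 0.33 SE, edgeR adjusted p = 0.00668). Sncb, beta-synuclein, fell by 0.32 on the log2 scale (SE 0.08). The 2 that rose, Sypl (0.54 ± 0.09 SE) and Syngr2 (0.93 ± 0.17 SE), are the relatives of synaptophysin and of the synaptogyrins that are expressed outside neurons. Of 29 other active zone and Rab3 genes, 9 fell (31.0%) and 3 rose (10.3%, median -0.08). Unc13c, a Munc13 known mainly from cerebellum, fell by 0.98 (SE 0.21), Rab27b by 0.66 (SE 0.14) and Lin7b by 0.50 (SE 0.10), while Rab3il1 rose by 0.61 (SE 0.10), as did Cask (0.29 ± 0.07 SE) and Ppfia1 (0.22 ± 0.06 SE), both named after their values were seen.

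Of 25 other endocytosis genes, 6 fell (24%) and 4 rose (16%, median -0.05). Synj2 fell by 0.50 (SE 0.06) and Itsn1, an endocytic scaffold, by 0.46 (SE 0.07), while Dnm2 and the clathrin adaptor Picalm (0.42 ± 0.07 SE) rose. Stx6 (0.19 ± 0.06 SE) and Ap2a2 (0.22 ± 0.07 SE), both named after their values were seen, rose too. Stx6 is a syntaxin that was counted here and not among the other SNAREs. Of 13 dense-core vesicle genes, 5 fell (38.5%) and none rose (median -0.21). They were Pcsk1n (-0.26 ± 0.06 SE), Pcsk1 (-0.73 ± 0.19 SE), Vgf (-0.35 ± 0.10 SE), Chga (-0.48 ± 0.15 SE) and Ptprn2 (-0.21 ± 0.08 SE), the last named after its value was seen. Most of these are genes of peptide storage and processing.

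The presynaptic genes did not move alone. Of 30 postsynaptic genes, 14 fell and 2 rose (median -0.24), with falls of 0.58 for Shank1, 0.66 for Homer1, 0.57 for Homer2 and 0.43 for Dlgap3, all scaffolds of the excitatory postsynaptic density. The 2 that rose, named after their values were seen, were Nlgn2 (0.31 ± 0.07 SE), an adhesion protein of inhibitory synapses, and Dlg1 (0.21 ± 0.08 SE). Of the 15 pan-neuronal markers, 10 fell and none rose (median -0.32), and the neurofilament and related genes Ina (-0.68 ± 0.09 SE), Nefh (-0.84 ± 0.12 SE), Nefm (-0.49 ± 0.08 SE) and Nefl (-0.46 ± 0.09 SE) had the smallest p-values. The pan-neuronal markers summed to between 5732 and 6278 CPM in WT and between 4538 and 5546 CPM in TfamAKO. Of 10 inhibitory neuron markers 8 fell (median -0.64), and of 8 excitatory neuron markers 4 fell (median -0.33). The excitatory list includes Slc17a7, 1 of the 35 genes, and the inhibitory list shares Slc32a1 with the vesicle list. The inhibitory markers summed to 1042 to 1266 CPM in WT and 521 to 1007 CPM in TfamAKO. The excitatory markers summed to 6046 to 7078 and 4937 to 5903 CPM, and the 6 CA1 markers to 706 to 826 and 527 to 640.2 CPM. None of these sums overlapped between the groups. In mean log2 CPM, however, the groups overlapped for the excitatory markers. There TfamAKO 5 lay at -0.067 and WT 4 at -0.071 relative to the WT mean. Of the CA1 markers 1 fell (16.7%), and of the 8 CA2 and CA3 markers 1 fell (12.5%), against 16.6% of all genes tested.

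Markers of other cell types moved as well. Of 10 microglia markers 9 rose (median 0.92), with a summed level of 389 to 454 CPM in WT and 718 to 902 CPM in TfamAKO, and of 7 endothelial markers 6 rose (median 0.85), at 206 to 269 CPM in WT and 309 to 502 CPM in TfamAKO. Of 12 astrocyte markers 4 rose and 4 fell, and of 10 oligodendrocyte markers 3 rose. All 11 choroid plexus markers were called lower, following their level in WT 3, 4 and 5. Of 7 markers of thalamus and habenula, neighbouring regions that may enter a dissection, 3 rose and 1 fell, the latter being Slc17a6, which is also on the vesicle list. The part of these cell types and regions in the presynaptic results was not tested.

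**Figure D5:**
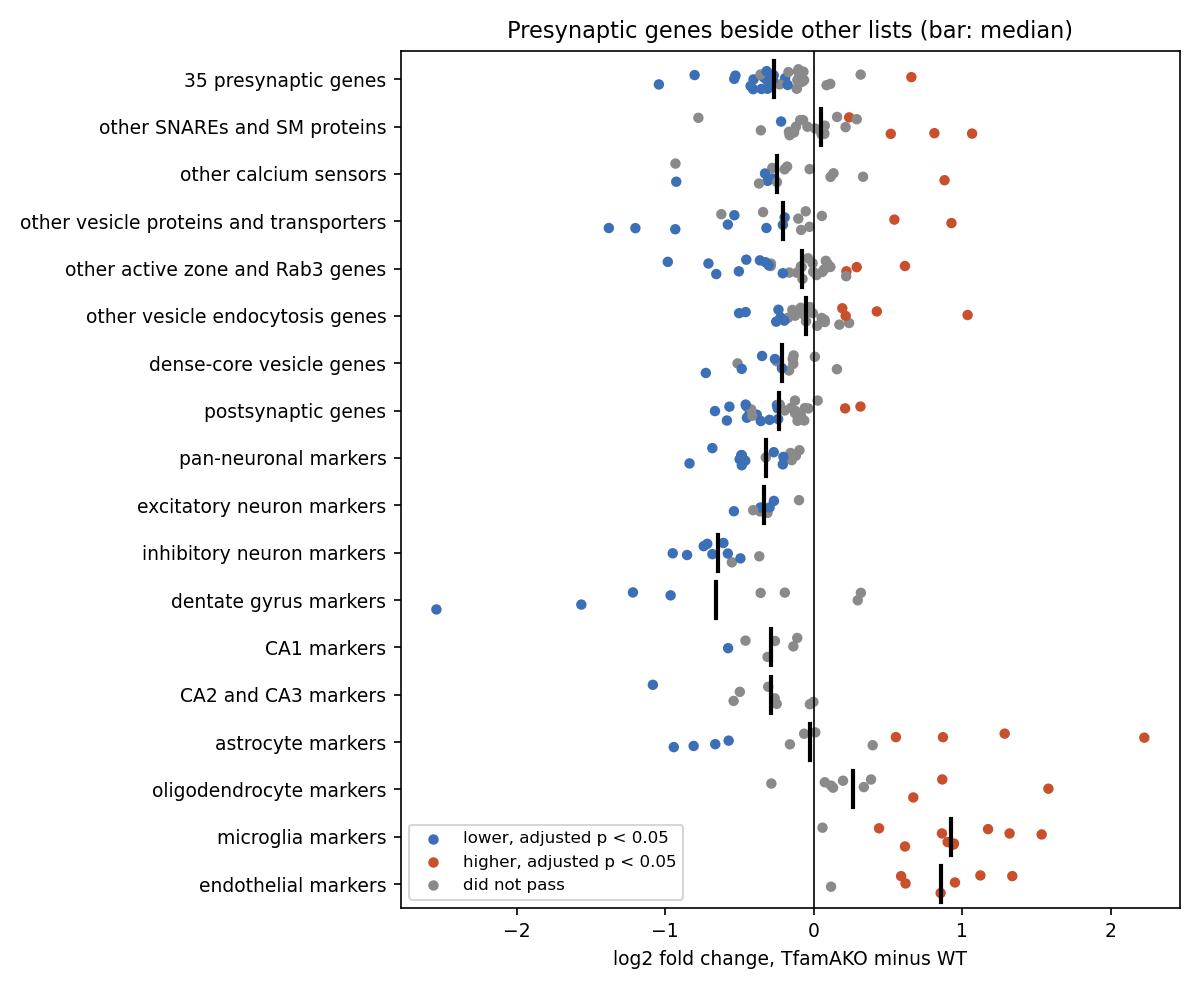
Log2 fold change (TfamAKO minus WT, horizontal axis) of every tested gene of each list (rows), blue for genes that fell, red for genes that rose and grey for genes that did not pass, with the median of the list as a black bar. The presynaptic list (median -0.27) lies between the postsynaptic (-0.24) and the pan-neuronal (-0.32) lists, and the microglia (0.92) and endothelial (0.85) lists lie to the right.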

How the data were processed

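Hippocampal RNA of 10 mice was analysed, 1 library each from 5 WT and 5 TfamAKO mice. Stranded mRNA libraries were made from column-purified total RNA, per the labels' protocols. The authors deposited a table of unnormalized estimated counts for 20156 genes, all of them whole numbers, so rounding changed nothing. They also deposited normalized values, treated as a signal. How these were made, and the genome build and annotation behind both tables, were details not given in the sources used here. Salmon (no version) and DESeq2 1.26.0 are named in the submitters' processing notes. Gene names are those of the table.

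Genes were kept by filterByExpr with a minimum count of 10, which left 16180, and libraries were scaled by TMM. The test between genotypes was the two-sided quasi-likelihood F test of edgeR 4.0.16 (R 4.3.3), with p-values adjusted over all 16180 genes by the Benjamini-Hochberg method at a threshold of 0.05. SE is the absolute log2 fold change over the square root of F. The first principal component used log2 CPM with a prior count of 2. Ratios of 24 related pairs were compared by a two-sided exact permutation test (scipy 1.17.1), and 1 further pair, which had not passed, is not reported here. Transcript lengths are those of the longest GENCODE M21 transcript. The fit and the permutation test were tested on simulated data.

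The 35 genes, the other lists and the pairs were chosen with earlier results of these data known. Values library by library are given for members past the threshold with the 8 largest rises or falls, for every member of a role that passed in both directions, and for the member nearest the threshold that missed it. Of each other synaptic list and of the pan-neuronal list, up to 4 genes with the smallest p are named. Unc13a, Stx1a, Bsn and Pclo were added after their values were seen. The alternatives tried were upper-quartile scaling, scaling by DESeq2 size factors, a looser and a stricter filter, limma-voom (limma 3.58.1), the Wald test of DESeq2 1.42.0, limma on the log2 of the deposited signal plus a pseudocount of 1 or 0.5, a replicate block, leaving out each library, leaving out TfamAKO 4 and 5, and leaving out WT 3, 4 and 5.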

Additional observations from a re-analysis of the deposited data

Results flagged for a closer look

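In 7 of 70 gene and group combinations of the 35 genes, 1 library lay far from the other 4 of its group, where chance alone gives about 1 in 20 (3.5 of 70). TfamAKO 1 was apart in 3 of them. It was the highest TfamAKO library for Syngr3 (122 CPM) and Cplx2 (1813 CPM) and the lowest for Rims1 (169.9 CPM), on the side of the WT values each time. Stx1a stood at 181 CPM in TfamAKO 5, the highest of its group and of all libraries. Syt7 stood at 473 CPM in TfamAKO 4, also the highest of all libraries. In WT, Vamp2 was high in WT 5 (1089 CPM) and Syt4 was low in WT 3 (130.1 CPM).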

How the results depend on the processing

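Of the 19 falls, 10 (Snap25, Syt1, Syt4, Syt5, Doc2b, Syp, Syngr3, Cplx1, Rab3a and Dnm1) kept their call under all 21 alternatives, and 9 lost it under 1 or more. Leaving out each library in turn gave 14 to 22 members lower, 1 to 1 higher, a median log2 fold change of the members from -0.31 to -0.20 (the latter without WT 1), and 2839 to 3800 genes higher and 1989 to 3294 lower over all genes. Without WT 3, 4 and 5 there were 12 members lower and 0 higher, and 2002 genes higher and 750 lower over all genes, with fewer samples in the fit. The deposited normalized signal gave 19 members lower and 1 higher. Changes of sign were seen only in values that had not passed: Syt7 (0.0089 in the deposited signal with either pseudocount), Bsn (from -0.22 to 0.069 over the left-out libraries, the latter without WT 1) and Napb (0.0085 without TfamAKO 4 and 5), and the ratios Syn2/Syn1 (-0.0078 to 0.15, below 0 without TfamAKO 3) and Syt3/Syt1 (-0.12 to 0.016, above 0 without TfamAKO 5). Pair ratios past the threshold were 0 to 9 when each library was left out, with 9 only without TfamAKO 5, and 0 without TfamAKO 4 and 5. Without WT 3, 4 and 5 there were 0, where the smallest possible p of 0.0952 cannot pass.

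The labels do not say whether the replicate numbers pair the mice. Same-numbered libraries correlated at 0.07, 0.02, 0.03, -0.0043 and -0.14 in their deviations from the group means. No WT library matched its own number best. These correlations cannot show whether the mice were paired. A replicate block gave 3134 genes higher and 2545 lower, and 1 member higher and 19 lower. With the block, 0 pair ratios passed, where the smallest possible p is 0.0625.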
